A study of Physalis pubescens with 5 samples.

Results

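The transcripts described here encode the actin cytoskeleton, the ROP GTPases that steer it and the exocyst that tethers vesicles at the plasma membrane, in floral buds and young fruits of Physalis floridana P106. They were chosen by words in the deposited description of each unigene, a transcript assembled from the reads: actin, profilin, villin, formin, myosin, fimbrin, ROP guanine, Rac-like GTP and exocyst among them, with tropomyosin left out. The words matched 627 of 133571 unigenes. Of these, 508 fell into 13 groups of actin, ROP and exocyst proteins, and 119 did not: 94 were matched by letters only (for example the UDP-forming cellulose synthases and the ethylene-forming ACC oxidases), 20 were chromatin remodellers named actin-dependent regulators, and 5 were kinases named after myosin. The results below are on the 508 unless they say otherwise.

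Actin monomers join into filaments along which plant cells carry organelles and secretory vesicles. Profilin binds monomers and hands them to formins, which start and lengthen filaments; the Arp2/3 complex starts branches, villin and fimbrin bundle filaments, actin-depolymerizing factors sever them, and myosins walk on them. ROP GTPases are membrane switches turned on by ROP guanine nucleotide exchange factors, and the exocyst is a complex of several subunits that holds a vesicle at the membrane before it fuses. Together they are best known in plants from tip growth, above all of the pollen tube, for which flowering plants keep pollen forms of several of these proteins.

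Buds were collected before fertilization and fruits after it, from plants of 1 cultivar, P106, kept under glass in long days (16 h light, 8 h dark); the labelled organism is Physalis pubescens, and the extraction text, which is the same for every sample, speaks of buds, open flowers and fruits of 5 days. Each organ had 2 libraries, here fruit 1, fruit 2, bud 1 and bud 2 by the labels' replicate numbers, and a mixed library made for assembly was not analysed here. The submitters' design text speaks of triplicates, whereas n is 2 for both organs in all comparisons below. The labels do not say whether libraries stem from different plants; a p-value here therefore weighs only how these 4 samples spread, which could be technical. In units of 1000 counts the libraries held 8240 to 9002, so 1 count was worth 0.111 to 0.121 CPM (counts scaled to a common library total) and a count of 0 allowed a level of up to 0.333 to 0.364 CPM (3 counts, counting error only).

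Fruit 1 stood apart from fruit 2, also in marker lists chosen by description. The 63 pollen and anther unigenes summed to 968 CPM in fruit 1, 7388 CPM in fruit 2, and 3493 and 4176 CPM in bud 1 and bud 2, and in fruit 1 49 of them had at least 1 count and 14 had none. The 111 photosynthesis unigenes summed to 14530 CPM in fruit 1 and 5390 to 6185 CPM in the other libraries. Unigenes named after floral organ factors, 68 in all, were at 1408 CPM in fruit 1 and 520 to 682 CPM elsewhere, and the 40 seed unigenes (vicilins, globulins and late embryogenesis proteins) at 242 and 616 CPM in the fruits and 5320 and 5464 CPM in the buds. The median log2 ratio of fruit 2 to fruit 1 over the tested unigenes was 3.90 for the pollen list, -0.79 for the photosynthesis list, 4.12 for the seed list and 0.06 for the floral organ list, whose typical unigene thus did not share the difference in its sum. By their sums, floral organ transcripts in the libraries labelled floral bud were below fruit 1 and above fruit 2. Seed transcripts were much higher there than in both fruits by their sums, with a median log2 fold change of fruit over bud of -0.44 over the tested ones. Organ names below are the labels' names. The part of these tissues in the results below was not tested, and in bulk samples fewer cells of a type cannot be told apart from less RNA per cell.

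The cytoskeletal transcripts as a whole had nearly the same summed level in every library. Summed over all 508 unigenes, they were at 6477 and 6602 CPM in fruit 1 and fruit 2 and at 6464 and 6546 CPM in bud 1 and bud 2, a difference in means (6539 ± 88.0 and 6505 ± 57.9, SD, n = 2) smaller than the spread. Actins were the most abundant group, with 1447 and 1743 CPM in the fruits and 1586 and 1784 CPM in the buds. Exocyst subunits had 900 and 820 CPM in the fruits and 1041 and 963 CPM in the buds, the only group described here whose fruit sums both lay below both bud sums. Formins, with 661 and 657 CPM in the fruits and 617 and 480 CPM in the buds, were the only one with both above. Actins, actin-depolymerizing factors and Rac-like GTPases had a lower sum in fruit 1 than in fruit 2, but with 1 unigene per description the actins turned (log2 of the summed fruit 2 over fruit 1 of -0.12, against 0.27 over all unigenes).

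**Figure D1:**
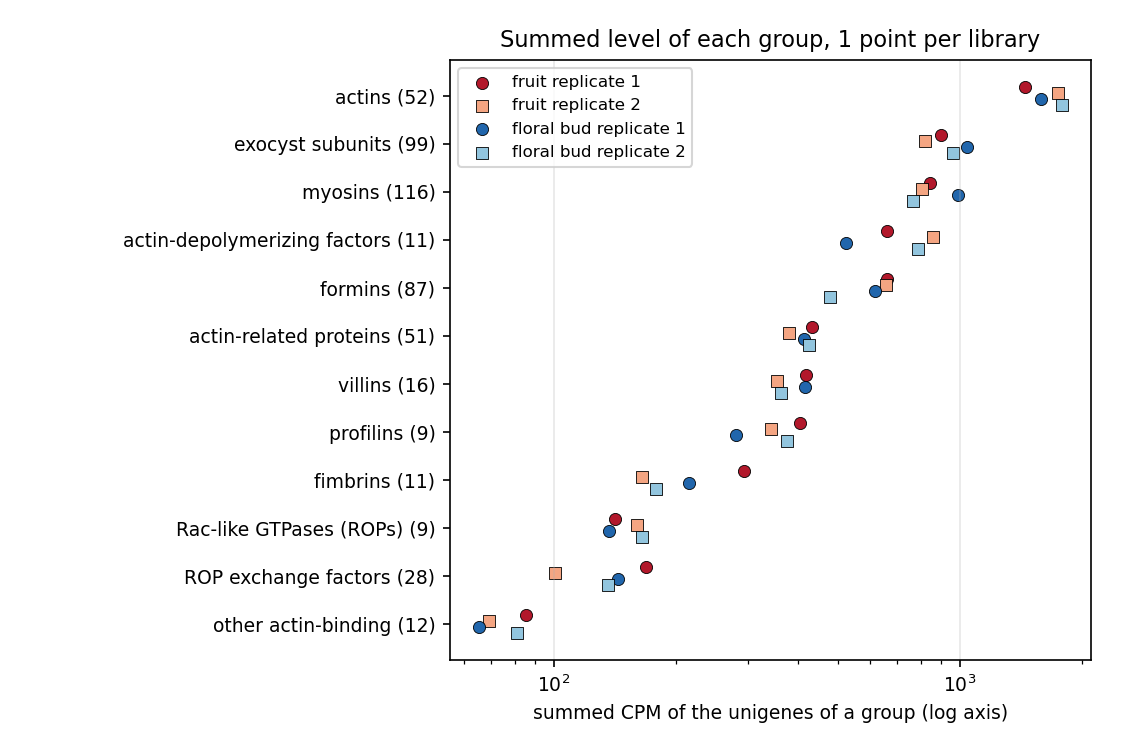
Summed CPM (log axis) of the unigenes of each group, with the number of unigenes in brackets and 1 point per library. The 4 points of most groups lie close together, and the fimbrins and ROP exchange factors are highest in fruit 1 and lowest in fruit 2.

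Fruit was set against bud to find transcripts whose level differs between flower and fruit. Of the 508 unigenes, 391 passed the filter on low counts and 117 did not; a unigene seen in 1 organ only could pass through that organ alone, so counts over the 391 describe them and support nothing. With p-values adjusted by Benjamini-Hochberg over all tested unigenes, edgeR's quasi-likelihood test called 0 of the 391 higher and 0 lower at an adjusted p under 0.05 (0% of all tested unigenes in each direction). At an unadjusted p under 0.05 it had 0 higher (0.51% of all) and 18 lower (1.11% of all), of which 13 were exocyst subunits and 5 myosins. DESeq2 called 0 higher (0.0491% of all) and 8 lower (0.21% of all), 5 of them exocyst subunits and 3 myosins. The median log2 fold change of the 391 was -0.01, against 0.01 over all tested unigenes. The organs' values did not overlap for 23 unigenes with higher fruits (8.49% of all) and 71 with lower fruits (13.6% of all), which is 5.88% and 18.2% of the 391.

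The calls turned on single libraries. Without fruit 2, edgeR called 4 of 414 members higher (2.29% of all) and 63 lower (6.14% of all). Without fruit 1 it called 5 of 411 higher (1.44% of all) and 11 lower (0.466% of all). Each of these fits has 1 fruit library, which is assumed to vary like the buds, and they share the buds. The fits without bud 1 or without bud 2 have 1 bud library. Only the 2 fruits set their spread, for members and all other unigenes alike. The 8 DESeq2 calls were mostly called by edgeR when either fruit library was left out. They were not called by edgeR when either bud library was left out. DESeq2 itself, with a library left out, called 2 of the 8 without fruit 1, 7 without fruit 2, 0 without bud 1 and 1 without bud 2.

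Taken within 1 replicate number, with 1 library per organ and no test, 15 of the 391 were at least 2-fold higher in fruit 1 than in bud 1 (5.55% of all) and 93 at least 2-fold lower (13% of all). In fruit 2 against bud 2, 24 were at least 2-fold higher (5.55% of all) and 30 at least 2-fold lower (3.55% of all).

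Within most groups, some transcripts were at comparable levels in all libraries and others were nearly missing from fruit 1 alone. At most 3 counts in fruit 1 and at least 5 CPM in each other library were seen for 27 of the 391 (6.91%, against 1.33% of all tested unigenes). These 27 summed to 2.44 CPM in fruit 1, 921 CPM in fruit 2, and 443 and 506 CPM in the buds. The other 364 summed to 6422 CPM in fruit 1, 5632 CPM in fruit 2, and 5965 and 6002 CPM in the buds. The 27 included 4 of 30 tested actins, 2 of 11 actin-depolymerizing factors, 1 of 8 profilins, 2 of 15 villins and 4 of 9 fimbrins. They also included 1 of 74 formins, 7 of 80 myosins and 4 of 90 exocyst subunits. The formin share was close to that of all tested unigenes. Actin-related proteins, capping and other actin-binding proteins, Rac-like GTPases and ROP guanine nucleotide exchange factors had 0 such members of 37, 6, 6 and 18 tested. Where only 6 were tested, a count of 0 cannot tell a group from the rest. At least 4-fold higher in fruit 2 than in fruit 1 were 58 of the 391 (14.8%, against 8.28% of all), and at least 4-fold lower were 11 (2.81%, against 2.98% of all). At least 4-fold apart between the buds were 9 (2.47% of all).

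**Figure D2:**
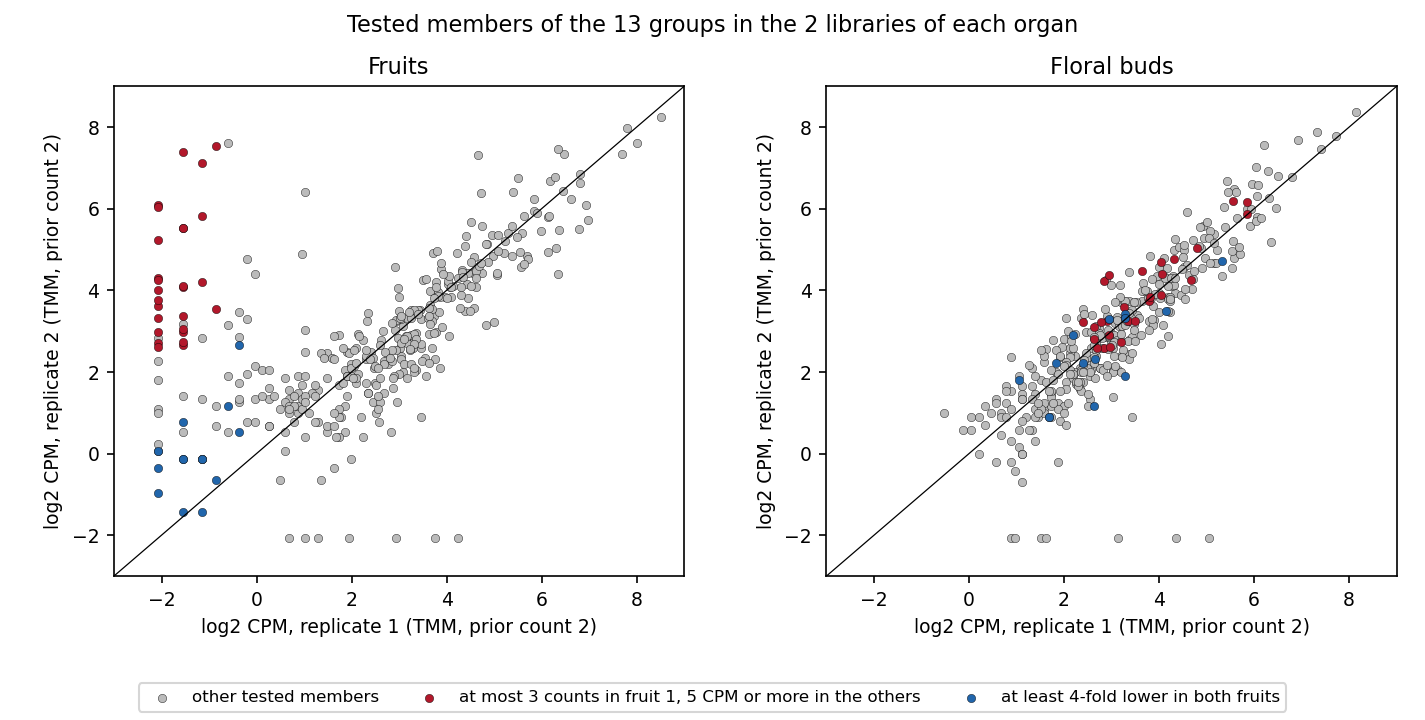
Log2 CPM (TMM factors, prior count 2) of the 391 tested unigenes, replicate 1 on the x axis and replicate 2 on the y axis, for the fruits on the left and the buds on the right; the line marks equal levels. The 27 red unigenes lie at the left edge in fruits and near the line in buds, and the blue ones are low in both fruits; Unigene135028_P106 meets both descriptions and is drawn in red.

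Among actins, the filament subunit itself, an actin-7-like transcript (Unigene54029_P106) was the most abundant. It stood at 382 and 273 CPM in fruit 1 and fruit 2 and at 287 and 314 CPM in bud 1 and bud 2, and the organs overlapped (log2 fold change 0.12, SE 0.39, edgeR adjusted p = 1). An actin-97-like transcript (Unigene55112_P106) was at 0.11 CPM, or 1 count, in fruit 1, 152 CPM in fruit 2, and 47.3 and 69.1 CPM in the buds. An actin-like transcript (Unigene8743_P106) had the same order, with 0.22, 124, 58.6 and 67.6 CPM. The buds thus lay between the fruits for both. Summed over unigenes of one name, actin-58-like transcripts were at 173 CPM in fruit 1 and 298 to 429 CPM in the others, and actin-7-like transcripts at 745 CPM in fruit 1 and 524 to 650 CPM in the others. Near-identical actins can share reads, and only uniquely mapped reads were counted, so the levels of single actin unigenes are uncertain.

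Actin-depolymerizing factors, which sever and turn over filaments, showed the same split. Actin-depolymerizing factor 1 (Unigene53979_P106) was at 234 and 226 CPM in fruit and 163 and 224 CPM in buds, the 4 libraries lying close together. Per length it was at 353 and 340 RPKM in fruit and 245 and 338 RPKM in buds, beside 343 and 245 RPKM in fruit and 257 and 281 RPKM in buds for the actin-7-like Unigene54029_P106. A transcript whose hit is a pollen-specific actin-depolymerizing factor of tobacco (Unigene52645_P106), also a member of the pollen list, was at 0.44 CPM in fruit 1, 176 CPM in fruit 2, and 24.3 and 57.1 CPM in the buds. Its log2 fold change was 1.22 with an SE of 2.13, and it was -6.60 without fruit 2 and 2.21 without fruit 1. Actin-depolymerizing factor 12-like (Unigene130061_P106) stood at 0.11, 41.5, 12.5 and 20.8 CPM in fruits 1 and 2 and buds 1 and 2, and factor 10-like (Unigene142149_P106) at 0 counts, 14.2, 16.8 and 19.7 CPM. A factor 1-like transcript (Unigene79480_P106) leaned the other way between the fruits, at 13.2 and 5.22 CPM against 8.10 and 5.49 CPM in buds.

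Profilins, which bind actin monomers, summed to 404 and 343 CPM in fruits and 281 and 375 CPM in buds. Profilin-1-like Unigene55075_P106 was at 81.9 and 99.2 CPM in fruits and 66.8 and 122 CPM in buds. Another profilin-1-like transcript (Unigene143782_P106) had 0 counts in fruit 1, 12.01 CPM in fruit 2, and 7.63 and 19.5 CPM in buds. Unigene54022_P106, of the same name, was highest in fruit 1, at 82.2 CPM against 29.6 CPM in fruit 2 and 36.1 and 33.4 CPM in buds. A profilin with no count in fruit 1 and one highest there thus carried the same name. The profilin-1 transcript Unigene129896_P106 was at 1.89 CPM in fruit 1, 75.8 CPM in fruit 2, and 43.8 and 96.5 CPM in buds.

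By their sums, actin-related proteins varied little, with 431 and 380 CPM in fruits and 412 and 425 CPM in buds. Both fruits lay below both buds for 9 of the 37 tested (24.3%, against 13.6% of all). Both lay above for 1 (2.70%, against 8.49% of all). At least 2-fold lower within both replicate numbers were 0 of the 37 (1.84% of all). Actin-related protein 4-like (Unigene129013_P106), which in Arabidopsis is a nuclear protein of chromatin complexes, was at 117 and 104 CPM in fruits and 112 and 104 CPM in buds. The 29 unigenes of the Arp2/3 complex summed to 134 and 119 CPM in fruits and 133 and 144 CPM in buds. A subunit 1-like transcript of that complex (Unigene137075_P106) was at 3.22 and 6.55 CPM in fruits and 3.82 and 6.45 CPM in buds, higher in replicates 2 of both organs. An actin-related protein 5-like transcript (Unigene95324_P106) was higher in replicates 1, with 14.1 and 6.92 CPM in fruits and 12.3 and 6.92 CPM in buds. F-actin-capping protein, which closes filament ends, had its most abundant unigene (Unigene69039_P106, alpha subunit) at 26.5 and 21.7 CPM in fruits and 21.4 and 31.4 CPM in buds. Other capping unigenes (Unigene70382_P106 and Unigene29767_P106) ranged from 4.51 to 10.8 CPM over the libraries, and their organs overlapped.

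Villins and fimbrins bundle filaments. Villin-2-like Unigene128672_P106 was at 103 and 68.0 CPM in fruits and 89.4 and 61.4 CPM in buds, whereas villin-2-like Unigene91770_P106 was at 0.11 CPM in fruit 1, 7.28 CPM in fruit 2, and 11.2 and 8.84 CPM in buds. A villin-4-like transcript (Unigene35737_P106) was higher in replicates 1, with 10.2 and 3.64 CPM in fruits and 7.40 and 4.06 CPM in buds. Fimbrin-like protein 2 transcripts fell into opposite patterns. Unigene29238_P106 was at 133 CPM in fruit 1, 47.8 CPM in fruit 2, and 67.9 and 52.1 CPM in buds, and Unigene27544_P106 at 116, 40.9, 60.7 and 45.3 CPM in the same order. Unigene71119_P106 had 0 counts in fruit 1, 8.86 CPM in fruit 2, and 5.09 and 8.60 CPM in buds. Of the 9 tested fimbrins, 4 were nearly missing from fruit 1 in this way, and all share the name of fimbrin-like protein 2.

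Formins start and lengthen filaments, and unigenes of different formin names went opposite ways between the fruits. Formin-like protein 5 transcript Unigene6216_P106 stood at 0.33 CPM, or 3 counts, in fruit 1, 168 CPM in fruit 2, and 20.0 and 25.7 CPM in buds. Fruit 2 alone was far above the other libraries. Its log2 fold change was 1.99 with an SE of 2.17 (edgeR adjusted p = 1), 2.99 without fruit 1 and -6.15 without fruit 2. Formin-like protein 3 unigenes, 7 in all, summed to 4.67 CPM in fruit 1, 77.3 CPM in fruit 2, and 29.0 and 24.9 CPM in buds. Formin-like protein 1 unigenes were the reverse, at 115 CPM in fruit 1, 40.5 CPM in fruit 2, and 69.7 and 46.9 CPM in buds. Among them, Unigene115824_P106 was at 11.2 CPM in fruit 1 and at 1.46, 1.27 and 0.60 CPM in fruit 2 and the buds (log2 fold change 2.69, SE 1.06, edgeR adjusted p = 1). Its log2 fold change was 0.76 without fruit 1 and 3.47 without fruit 2 (edgeR adjusted p = 8.11e-05). Another formin-like protein 5 transcript (Unigene30995_P106) followed the replicate number, at 7.22 and 1.09 CPM in fruits and 10.8 and 1.55 CPM in buds.

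Some formins were higher in both fruits than in both buds, by less. Formin-like protein 7 transcript Unigene136755_P106 was at 16.7 and 12.5 CPM in fruits and 9.25 and 8.00 CPM in buds (log2 fold change 0.76, SE 0.31, edgeR adjusted p = 1). Formin-like protein 8 transcript Unigene69987_P106 was at 13.7 and 12.4 CPM in fruits and 9.14 and 6.21 CPM in buds (log2 fold change 0.78, SE 0.34, edgeR adjusted p = 1). Of the 74 tested formins, 8 had both fruits above both buds (10.8%, near the 8.49% of all tested unigenes). Both fruits lay below both buds for 6 (8.11%, against 13.6% of all). Of the 7 tested formin-like protein 8 unigenes, 5 were among the 8 with higher fruits. Unigenes of 1 name may be fragments of 1 gene, so the 5 are not a count of genes. An actin whose hit is from a spikemoss, Selaginella apoda (Unigene44159_P106) was also higher in both fruits, at 11.7 and 17.0 CPM against 7.63 and 9.07 CPM in buds, with a log2 fold change of 0.81 (SE 0.41) and an edgeR adjusted p of 1.

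**Figure D3:**
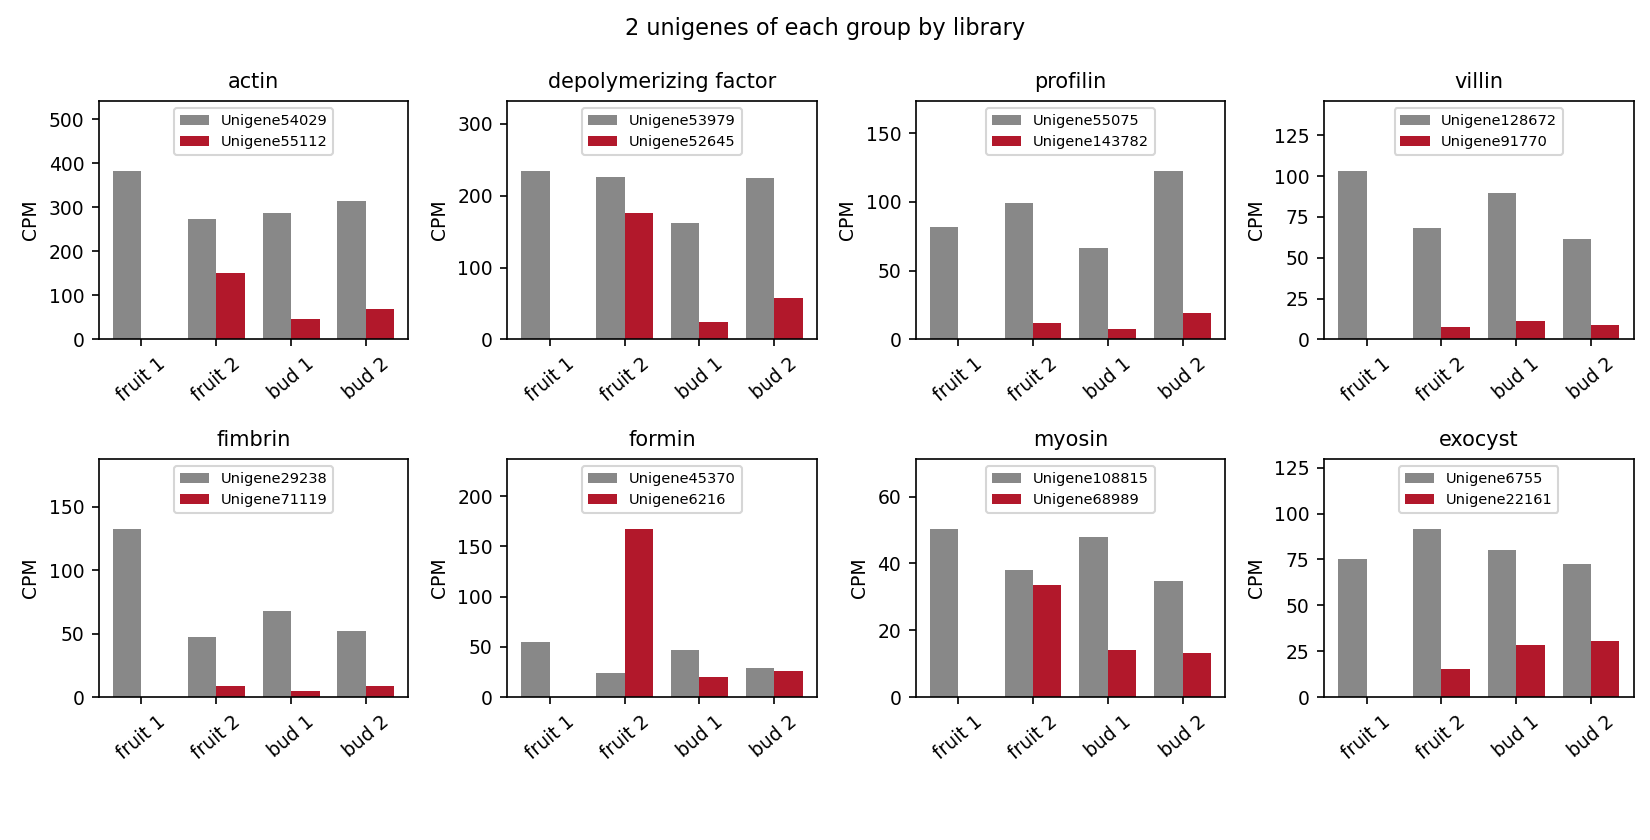
CPM (y axis, from 0) in each of the 4 libraries for a pair of unigenes from each of 8 groups: in grey an abundant unigene present in all libraries, and in red the unigene with the largest log2 ratio of fruit 2 to fruit 1 at a mean of at least 5 CPM. The red bars are missing or close to 0 in fruit 1 and present in the other libraries.

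Myosins, the motors, were the largest group by number, with 116 unigenes and sums of 842 and 807 CPM in fruits and 991 and 768 CPM in buds. The myosin-Va-like Unigene108815_P106 was at 50.3 and 37.99 CPM in fruits and 47.9 and 34.9 CPM in buds, higher in replicates 1 of both organs. Myosin-H heavy chain-like Unigene68989_P106 had 0 counts in fruit 1, 33.6 CPM in fruit 2, and 14.0 and 13.3 CPM in buds. Of 27 tested myosin-H unigenes, 5 were nearly missing from fruit 1 alone, and the sum of all 35 was 114 CPM there, 209 CPM in fruit 2, and 164 and 136 CPM in buds. Names such as myosin-J and myosin-H come from the tomato annotation and do not give the plant myosin class.

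Myosin-J heavy chain-like transcripts held another pattern, low in both fruits. Unigene135028_P106 was at 0.11 and 6.92 CPM in fruits and 58.8 and 55.6 CPM in buds, and Unigene135593_P106 at 0.56 and 5.46 CPM in fruits and 40.5 and 24.6 CPM in buds. Unigene13181_P106 had 1 count in each fruit, 0.11 and 0.12 CPM, and was at 6.13 and 4.54 CPM in buds. It had the smallest unadjusted p of the members (0.00045), a log2 fold change of -5.34 (SE 0.59), an edgeR adjusted p of 1 and a DESeq2 adjusted p of 0.00281. The organs did not overlap for any of these. Of the 27 tested myosin-J unigenes, 6 were at least 4-fold lower in fruit than in bud within both replicate numbers (0.66% of all tested unigenes) and 8 at least 2-fold lower (1.84% of all). The most abundant of the rest, Unigene36861_P106, overlapped between the organs, at 25.5 and 19.9 CPM in fruits and 22.4 and 21.6 CPM in buds. The sum of all 44 was 218 and 236 CPM in fruits and 369 and 304 CPM in buds.

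The summed level of the ROP switches varied little, with 142 and 160 CPM in fruits and 137 and 165 CPM in buds. Of the Rac-like GTPases, Unigene127007_P106, named Rac-like GTP-binding protein 3, was at 60.0 and 68.5 CPM in fruits and 48.6 and 85.1 CPM in buds. ARAC1-like Unigene8667_P106 was at 23.8 and 45.9 CPM in fruits and 37.8 and 30.0 CPM in buds, and ARAC7 Unigene73056_P106 at 8.22 and 5.22 CPM in fruits and 8.33 and 8.48 CPM in buds. The exchange factors that turn ROPs on summed to 168 CPM in fruit 1, 101 CPM in fruit 2, and 144 and 136 CPM in buds. Exchange factor 1-like Unigene7963_P106 was at 53.7 and 25.6 CPM in fruits and 29.7 and 30.8 CPM in buds, and Unigene116230_P106, of the same name, at 14.9 and 3.64 CPM in fruits and 5.78 and 5.49 CPM in buds; for both, fruit 1 was the highest library and fruit 2 the lowest. Unigene126651_P106 was at 3.67 and 4.85 CPM in fruits and 9.14 and 4.78 CPM in buds.

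Exocyst subunits were the group with the most members lower in both fruits. Both fruits lay below both buds for 30 of the 90 tested (33.3%, against 13.6% of all tested unigenes), and 5 had both above (5.56%, against 8.49% of all). At least 4-fold lower within both replicate numbers were 8 (8.89%, against 0.66% of all). At least 2-fold lower within both were 15 (16.7%, against 1.84% of all), and these were named component 2, 3, 5 or 7. Component 2 is the subunit SEC5 and component 5 the subunit SEC10, both part of the vesicle-tethering core. Component 2-like Unigene39217_P106 was at 0.22 and 0.61 CPM in fruits and 17.8 and 10.5 CPM in buds (log2 fold change -5.02, SE 0.68, edgeR adjusted p = 1, DESeq2 adjusted p = 2.3e-07). Unigene111903_P106, of the same name, was at 0.33 and 0.36 CPM in fruits and 5.09 and 4.18 CPM in buds (log2 fold change -3.66, SE 0.51, edgeR adjusted p = 1, DESeq2 adjusted p = 0.00556). For both transcripts the buds lay far above the fruits. Leaving out fruit 1 gave Unigene39217_P106 a log2 fold change of -4.38, and leaving out fruit 2 one of -5.99.

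Among the 13 tested component 2-like unigenes, 8 were at least 2-fold lower in fruit within both replicate numbers (1.84% of all) and 5 were not. The most abundant of the 5, Unigene16932_P106, was at 62.1 and 53.4 CPM in fruits and 62.0 and 60.3 CPM in buds, and Unigene18165_P106 was at 48.6 and 27.3 CPM in fruits and 48.0 and 26.0 CPM in buds. Component 5-like transcripts were split alike, with 4 of 8 tested at least 2-fold lower in both comparisons (1.84% of all). Unigene91487_P106 was at 0.56 and 1.09 CPM in fruits and 7.63 and 9.07 CPM in buds (log2 fold change -3.30, SE 0.56, edgeR adjusted p = 1, DESeq2 adjusted p = 0.000892), and Unigene39394_P106 at 1.67 and 3.16 CPM in fruits and 16.3 and 13.01 CPM in buds (log2 fold change -2.55, SE 0.51, edgeR adjusted p = 1, DESeq2 adjusted p = 0.00239). Without fruit 1 and without fruit 2 in turn, the log2 fold change was -2.80 and -3.99 for Unigene91487_P106 and -2.09 and -3.22 for Unigene39394_P106. Component 5-like Unigene4733_P106, by contrast, was at 38.3 and 27.1 CPM in fruits and 30.9 and 36.7 CPM in buds. Unigenes of 1 name may be fragments of 1 gene or of several, so the counts of 8 and 4 are not counts of genes.

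**Figure D4:**
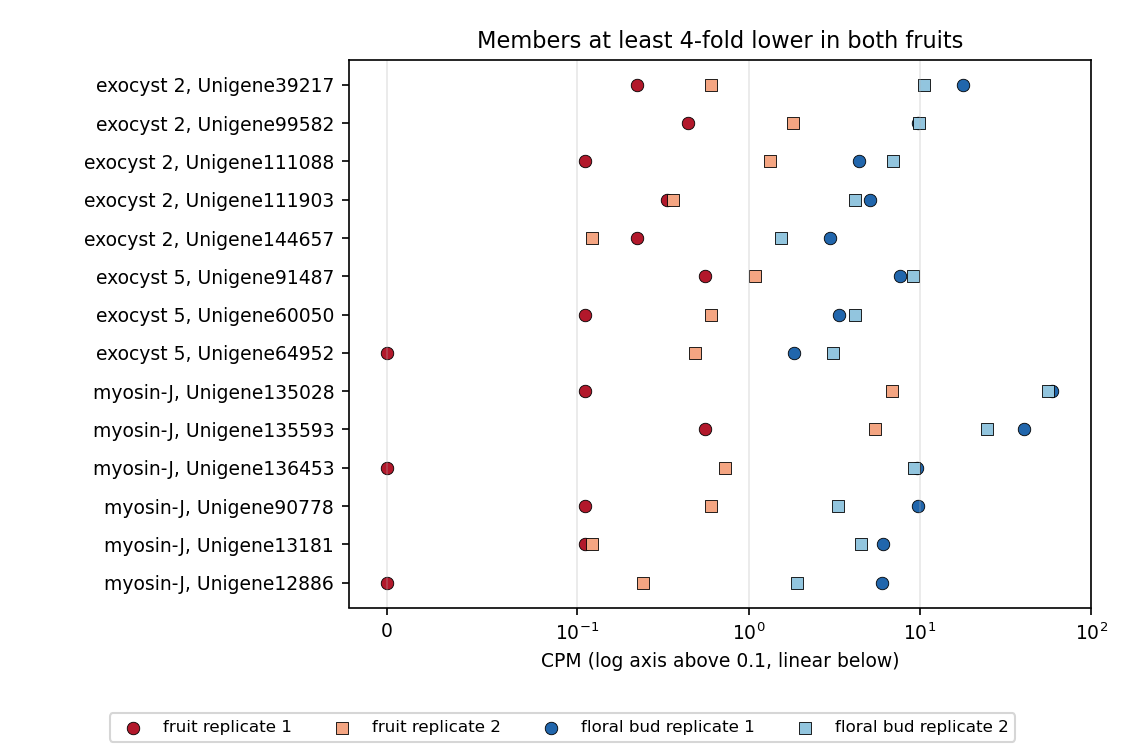
CPM of the 14 members at least 4-fold lower in fruit than in bud within both replicate numbers, 1 row per unigene and 1 point per library; the x axis is logarithmic above 0.1 CPM and linear below. All are component 2 or 5 of the exocyst or myosin-J, and in each row both fruit points lie left of both bud points.

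Component 7 of the exocyst, the EXO70 family, has many copies in flowering plants, and with 36 unigenes it was the largest subunit by number. Its most abundant unigene, Unigene6755_P106, was at 75.1 and 91.6 CPM in fruits and 80.4 and 72.4 CPM in buds (log2 fold change 0.16, SE 0.36, edgeR adjusted p = 1). Unigene22161_P106 was at 0.11 CPM in fruit 1, 15.3 CPM in fruit 2, and 28.2 and 30.8 CPM in buds, so both fruits were below both buds by very different amounts. It was among 4 of the 34 tested component 7 unigenes that were nearly missing from fruit 1, and the other exocyst subunits had none. SEC3A-like Unigene17859_P106 followed the replicate number, with 12.1 and 3.16 CPM in fruits and 8.10 and 2.27 CPM in buds. Component 6 transcripts were even, summing to 92.1 and 90.3 CPM in fruits and 86.5 and 86.6 CPM in buds.

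Over all 13 groups, 14 of the 391 tested members were at least 4-fold lower in fruit than in bud within both replicate numbers, 3.58% against 0.66% of all tested unigenes, and 0 were at least 4-fold higher (0.0384% of all). These 14 summed to 2.89 and 20.5 CPM in fruits and 184 and 149 CPM in buds. At least 2-fold lower within both numbers were 25, or 6.39% against 1.84% of all, and 1 was at least 2-fold higher (0.473% of all). Apart from an actin-7-like transcript, all 25 were exocyst subunits (15) or myosins (9).

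Other proteins of the pathway were taken by description as well, among them CRIB-domain proteins, cyclase-associated proteins, phosphatidylinositol 4-phosphate 5-kinases, syntaxins, Rab GTPases, SCAR and WAVE proteins and gelsolins, 171 unigenes of which 138 were tested. They summed to 1894 and 2335 CPM in fruits and 2064 and 2248 CPM in buds. The edgeR test called 0 of them in either direction, with 0 higher (0.51% of all) and 2 lower (1.45%, near the 1.11% of all) at an unadjusted p under 0.05, and DESeq2 called 0. At most 3 counts in fruit 1 and at least 5 CPM elsewhere were found for 5 of the 138 (3.62%, against 1.33% of all), and 0 were 4-fold lower within both replicate numbers. Without fruit 2 edgeR called 17 of 144 lower (11.8%, against 6.14% of all) and 0 higher, and without fruit 1 it called 2 of 144 higher (1.39%, near the 1.44% of all) and 0 lower.

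A few members were seen in replicates 1 of both organs and not at all in replicates 2. An actin (Unigene54950_P106) had 19.4 CPM in fruit 1 and 33.4 CPM in bud 1, with 0 counts in both replicates 2, and a myosin of 2123 bases (Unigene9129_P106) was at 13.9 and 20.6 CPM and 0 counts likewise. At least 3 counts in replicates 1 together and 0 in replicates 2 were found for 22 of the 508 unigenes (4.33%), against 7.34% of all unigenes, and the reverse for 1, against 0.756%. Among members by the rule, 10 had their hit in Phytophthora infestans, an oomycete, of which 7 were alpha-actinins; they held 37 counts in fruit 1, 38 in bud 1 and 0 in replicates 2. Of the 22 unigenes seen in replicates 1 only, 2 had their hit in the plant genera Solanum, Nicotiana or Arabidopsis. The share of such hits among all unigenes seen in replicates 1 only was not computed. Where these transcripts came from was not tested.

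Of the members that letters alone had matched, an ACC oxidase 3 transcript (Unigene54141_P106), for an enzyme of ethylene synthesis, was among those with the smallest unadjusted p of the higher ones. It was at 86.4 and 49.3 CPM in fruits and 37.9 and 35.0 CPM in buds, with a log2 fold change of 0.89 (SE 0.36) and an edgeR adjusted p of 1. The 94 such members summed to 2127 and 2293 CPM in fruits and 2193 and 2460 CPM in buds.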

How the data were processed

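Counts of uniquely mapped reads per unigene were deposited by the authors, per the file headers, with RPKM values (per base length and library size), which the counts give back within a relative deviation of 1.1e-08. Which assembler, aligner and counter were used is not given in the sources used here. Only unigenes with at least 1 count stand in a file, and the rest were set to 0. Descriptions of database hits came from the files of replicates 2 (585 members) or else of replicates 1 (42). No genome was used, and no sequences were at hand.

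The test was edgeR (4.0.16, R 4.3.3): filterByExpr left 59858 unigenes, libraries were scaled by TMM, and glmQLFit and glmQLFTest compared 2 fruit with 2 bud libraries, with 2 residual degrees of freedom, two-sided, with Benjamini-Hochberg adjustment and a threshold of 0.05. Standard errors are the fold change over the square root of F. DESeq2 1.42.0 (Wald test) was an alternative; others were RLE scaling, no filter, a left-out library and a replicate block. An exact permutation of 2 against 2 cannot go below p = 0.333. The code was tested on simulated data in which all unigenes had the same dispersion and no library stood apart. That test therefore does not cover a library such as fruit 1. Changes within a replicate number used log2 CPM with TMM and a prior count of 2, with 1 library per organ and no test.

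The members, lists and rules were chosen with earlier results of these data known. The rule for named unigenes took every member called by edgeR (there were 0; DESeq2 calls were no criterion), in each of 12 groups the most abundant tested one and, at a mean of at least 5 CPM, those with the largest and smallest ratio between the fruits, and over all members the 5 with the smallest unadjusted p in each direction: 45 in all. The values of 1 of the 13 groups are not reported here, though sums and counts over all groups include it. Unigene8743_P106, Unigene130061_P106, Unigene142149_P106, Unigene129896_P106, Unigene135028_P106, Unigene135593_P106, Unigene36861_P106, Unigene16932_P106, Unigene18165_P106, Unigene4733_P106 and, in a plot, Unigene45370_P106 were added after their values were seen, as were the counts of members nearly missing from fruit replicate 1 and of members lower within both replicate numbers.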

Additional observations from a re-analysis of the deposited data

How the results depend on the processing

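With 2 libraries per organ, the number of calls turned on 1 library, and the cause was not tested. Over all 627 members edgeR called 0 and DESeq2 called 8; leaving out 1 library in turn gave 0 to 82 calls with edgeR, 0 to 61 with DESeq2 and 0 to 17 for the partners of the pathway with edgeR. Without fruit replicate 2 edgeR called 7 of 518 members higher (1.351%, against 2.29% of all unigenes) and 75 lower (14.5%, against 6.14%), and without fruit replicate 1 it called 5 of 510 higher (0.98%, against 1.44%) and 11 lower (2.16%, against 0.466%). For DESeq2 with a library left out, the shares of all unigenes were not computed, so its calls cannot be set against them. RLE size factors and no filter on low counts left 0 called, and kept the direction of all 45 named members. A change of at least 4-fold in place of 2-fold left 1 member higher and 77 lower in fruit replicate 1 than in bud replicate 1 (26 and 117 before), and 3 higher and 14 lower in fruit replicate 2 than in bud replicate 2 (25 and 31 before). The 4-fold shares of all unigenes were not computed. At 2-fold, 5.55% of all tested unigenes were higher and 13% lower in fruit replicate 1, and 5.55% and 3.55% in fruit replicate 2. Requiring 0 counts in fruit replicate 1 in place of at most 3 left 13 of 29 members nearly missing there.

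The replicate numbers were not taken as pairs in the main fit, though deviations of same-numbered libraries correlated at 0.466. Of all unigenes, 7.34% had at least 3 counts in replicates 1 together and 0 in replicates 2, against 0.756% for the reverse. What same-numbered libraries share beyond the number was not tested. With a replicate block edgeR called 0 members, and the log2 fold change turned sign for 8 named members: -2.79 for Unigene55112_P106, -1.67 for Unigene52645_P106, 0.0077 for Unigene55075_P106, 0.0014 for Unigene70382_P106, -1.07 for Unigene6216_P106, -1.75 for Unigene68989_P106, 0.0088 for Unigene127007_P106 and -0.013 for Unigene8667_P106.

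Leaving out 1 library turned the sign for 28 of the 45 named members, and their log2 fold changes ranged from -0.020 to 0.28 for Unigene54029_P106, -8.97 to 1.49 for Unigene55112_P106, -10.05 to 9.26 for Unigene54950_P106, -0.012 to 0.61 for Unigene53979_P106, -6.60 to 2.21 for Unigene52645_P106, -0.25 to 0.87 for Unigene79480_P106, -0.47 to 0.56 for Unigene55075_P106 and -0.11 to 1.14 for Unigene54022_P106. They ranged from -0.79 to 0.50 for Unigene137075_P106, -0.34 to 0.52 for Unigene95324_P106, -0.44 to 0.27 for Unigene69039_P106, -0.34 to 0.39 for Unigene70382_P106, -0.019 to 0.41 for Unigene128672_P106, -0.52 to 0.75 for Unigene35737_P106, -0.20 to 1.05 for Unigene29238_P106, -8.95 to 0.48 for Unigene71119_P106 and -0.25 to 1.04 for Unigene27544_P106. Ranges were -6.15 to 2.99 for Unigene6216_P106, -2.33 to 1.29 for Unigene30995_P106, -0.026 to 0.28 for Unigene108815_P106, -9.93 to 1.42 for Unigene68989_P106, -9.36 to 8.77 for Unigene9129_P106, -0.44 to 0.52 for Unigene127007_P106, -0.61 to 0.56 for Unigene8667_P106, -0.12 to 0.72 for Unigene7963_P106, -0.51 to 1.30 for Unigene116230_P106, -0.13 to 0.39 for Unigene6755_P106 and -0.57 to 1.63 for Unigene17859_P106. Among members that kept their sign, wide ranges were 0.76 to 3.47 for Unigene115824_P106, -9.95 to -0.072 for Unigene143782_P106, -7.98 to -0.83 for Unigene22161_P106 and -6.41 to -0.33 for Unigene91770_P106. The count of 28 describes this list only. Many of the 45 were named for the largest or smallest ratio between the fruits, so a turned sign was partly set by that rule. Others, such as Unigene54029_P106 and Unigene108815_P106, turned from a log2 fold change close to none. A fold change against libraries at 0 counts depends on the prior count and is no bound.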

Other observations

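The deposited KEGG terms of the myosins mix the motor with another enzyme. Of 116 myosin unigenes, 88 carried a term; 75 of these entries include DNA topoisomerase III, and for 26 the last term is myosin V.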
